A study of Homo sapiens with 24 samples.

Results

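The 8 genes described here, SDR16C5, DHRS3, RDH10, RDH11, CRABP2, RARA, RARG, and RXRA, encode enzymes, a binding protein, and nuclear receptors of the retinoid pathway. They were taken by gene symbol from a read-count table of 14493 genes, and all 8 were present in it. SDR16C5 was chosen by its read counts in these libraries, since the study listed it as higher in both lipogenesis-inhibitor groups and not in the other drug groups, so its differences from day-0 cells and between those drug groups are given as a description with no test. The other 7 were chosen for their place in the pathway.

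Transcripts were measured by RNA-seq in SKBr3 cells, a single established human HER2-positive breast cancer cell line that was not genetically modified in these groups. The 24 libraries fell into 8 groups of 3 replicates. Untreated proliferative cells were collected at day 0 and at day 7. Cells in therapy-induced senescence (TIS) were collected at day 7, with fresh drug on day 3, after 250 nmol/L of ND-646 (an inhibitor of acetyl-CoA carboxylase, ACC), 250 nmol/L of TVB-3166 (an inhibitor of fatty acid synthase, FASN), 10 μmol/L of bleomycin, 10 nmol/L of doxorubicin (both of which damage DNA), 1 μmol/L of palbociclib (an inhibitor of CDK4/6), or 500 nmol/L of alisertib (an inhibitor of Aurora kinase A). The labels record a refeeding on day 3 for the drug groups and none for untreated day-7 cells. Against day-7 cells, drug and refeeding therefore cannot be told apart. The labels do not say whether replicates came from separate cultures, so p-values measure only the spread between these libraries, which may be technical.

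Retinol is oxidised to retinal by microsomal short-chain dehydrogenases, among them RDH10 and SDR16C5, and retinal is reduced back to retinol by DHRS3 and RDH11. Aldehyde dehydrogenases of the ALDH1A family turn retinal into retinoic acid, which CRABP2 carries to the nucleus. There it binds the retinoic acid receptors, such as RARA and RARG, which sit on DNA as heterodimers with a retinoid X receptor such as RXRA. DHRS3 is itself a retinoic acid-induced gene, and RXRA is also the partner of the LXR and PPAR receptors.

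Total counts per library ranged from 29405121 to 44316330. All 7 markers listed for HER2-positive luminal epithelium were in the table, with ERBB2 at 5120 to 8830 CPM (counts per 1000000, with TMM scaling). Of 4 fibroblast markers only COL1A1 was in the table (6.43 to 15.3 CPM), and of 4 leukocyte markers only CD68, a lysosomal protein of macrophages and many other cells, which ran from 3.7 to 7.33 CPM in untreated libraries and from 25.6 to 56.4 CPM in ND-646, TVB-3166, and bleomycin libraries. The part of CD68-expressing cells in the results was not tested. ND-646 replicate 1 stood apart. Without it the genes called between TVB-3166 and ND-646 cells rose from 98 to 1518, and calls of the 8 genes that change without it are given both ways.

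Of the 8 genes, DHRS3 was called in the most TIS groups: it rose in 5 of the 6 TIS groups, by 1.65-fold to 3.84-fold over day-0 cells. RDH10 rose in the DNA damage groups and slightly in TVB-3166 cells, RDH11 rose in doxorubicin, palbociclib, and alisertib cells, and RARG fell in TVB-3166, palbociclib, and alisertib cells. RARA passed the test in none of the 6 groups. SDR16C5 was highest in both lipogenesis-inhibitor groups and lowest in palbociclib cells. A gene was called where the quasi-likelihood test of edgeR gave a Benjamini-Hochberg adjusted p-value under 0.05, adjusted over all genes tested. Of the 7 genes tested against day-0 cells, 1 was called in ND-646 cells (beside 37.9% of all genes tested), 4 in TVB-3166 cells (55.1%), 3 in bleomycin cells (49.4%), 4 in doxorubicin cells (48.4%), 3 in palbociclib cells (53.2%), and 2 in alisertib cells (37.3%). The shares of the 7 genes, from 14.3% to 57.1%, lay on both sides of the shares of all genes. With day-7 cells as the reference, 34.2% of all genes were called in ND-646, 51.5% in TVB-3166, 19% in alisertib, 44.8% in palbociclib, 43.4% in doxorubicin, and 45.6% in bleomycin cells, and calls against day-7 cells are given gene by gene. Because each group was compared with the same 3 day-0 libraries, the comparisons are not independent of each other. The values are shares of the RNA of a whole culture, so fewer cells expressing a gene and less of its RNA per cell cannot be told apart.

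**Figure D1:**
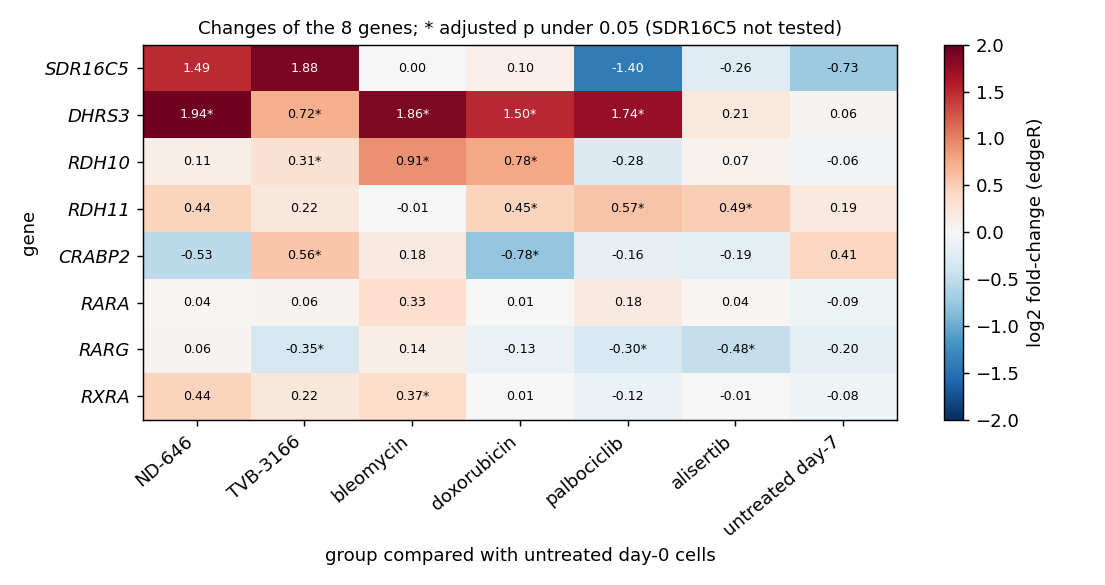
Log2 fold-change against untreated day-0 cells (colour and printed value, edgeR) for each of the 8 genes (rows) in 6 TIS groups and untreated day-7 cells (columns), with 3 libraries per group. A star marks an adjusted p-value under 0.05. DHRS3 carries 5 stars, RARA none, and SDR16C5 was not tested.

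Between untreated day-7 and day-0 cells none of the 7 genes was called, against 0.587% of all genes. Over all genes the number called depended on the test: 80 with edgeR, 1131 with DESeq2, and 1263 with edgeR and the replicate number as a block. In edgeR 2 of the 7, RDH11 (log2 fold-change 0.19) and CRABP2 (0.41), had an unadjusted p-value under 0.05, against 23.9% of all genes, and DESeq2 called 0. RDH11 libraries were all higher and RARG libraries all lower (-0.20) at day 7 than at day 0. SDR16C5 averaged 4.93 ± 2.84 CPM at day 0 and 2.95 ± 0.574 CPM at day 7 (SD, n = 3), and the libraries overlapped. CRABP2 averaged 15.4 ± 4.35 and 20.3 ± 1.07 CPM (log2 fold-change 0.41, adjusted p = 0.202), so the CRABP2 comparisons are given with both untreated groups.

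SDR16C5, also known as RDHE2, oxidises retinol to retinal in epithelia. Its gene (Entrez 195814) lies at chr8:57212564-57233335 on the minus strand of GRCh37. Day-0 libraries held 8.19, 3.65, and 2.96 CPM, and day-7 libraries 3.44, 3.1, and 2.32 CPM. The first day-0 library was thus more than the sum of the other two. In ND-646 cells the 3 libraries held 20.8, 11.7, and 9.57 CPM, and in TVB-3166 cells 17.2, 20.7, and 16.9 CPM. All 6 lipogenesis-inhibitor libraries were above all 18 others, a separation that follows from how the gene was chosen. Bleomycin libraries held 5.18, 5.71, and 3.87 CPM, doxorubicin libraries 6.8, 4.7, and 4.29 CPM, and alisertib libraries 4.59, 4.14, and 3.75 CPM, all within the range of the day-0 libraries. Palbociclib libraries were the lowest, at 1.77, 2.73, and 1.13 CPM, and did not overlap with those of day 0.

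As a description, the log2 fold-change of SDR16C5 against day-0 cells was 1.49 in ND-646 cells (2.81-fold) and 1.88 in TVB-3166 cells (3.68-fold), 0.00 in bleomycin, 0.10 in doxorubicin, -0.26 in alisertib, and -1.40 in palbociclib cells. Without ND-646 replicate 1 the value of ND-646 cells was 1.1. Without day-0 replicate 1 the values were 2.07 (ND-646) and 2.47 (TVB-3166), and those of bleomycin, doxorubicin, and alisertib cells were 0.57, 0.68, and 0.34, so the position of the last 3 groups relative to day 0 rests on that library. Against day-7 cells the values were 2.24 (ND-646), 2.63 (TVB-3166), 0.75 (bleomycin), 0.86 (doxorubicin), 0.50 (alisertib), and -0.65 (palbociclib). In absolute terms it remained the least abundant of the 8 genes: its mean level per kilobase of exon was 1.5 CPM at day 0 and 5.56 CPM in TVB-3166 cells, and its counts ran from 38 to 653 per library. The ratio of its highest to its lowest group mean, 9.68, was the largest of the 8.

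The choice of SDR16C5 rested on high levels in both inhibitor groups and not on the difference between them, which was tested. The same libraries entered that choice, so the p-values of this difference are not independent of it. TVB-3166 cells averaged 18.2 ± 2.09 CPM and ND-646 cells 14.0 ± 5.98 CPM (SD, n = 3), a log2 difference of 0.39 ± 0.28 (SE) with overlapping libraries (edgeR adjusted p = 0.561). Without ND-646 replicate 1, its highest ND-646 library, the difference was 0.78 and was called (adjusted p = 0.00928).

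**Figure D2:**
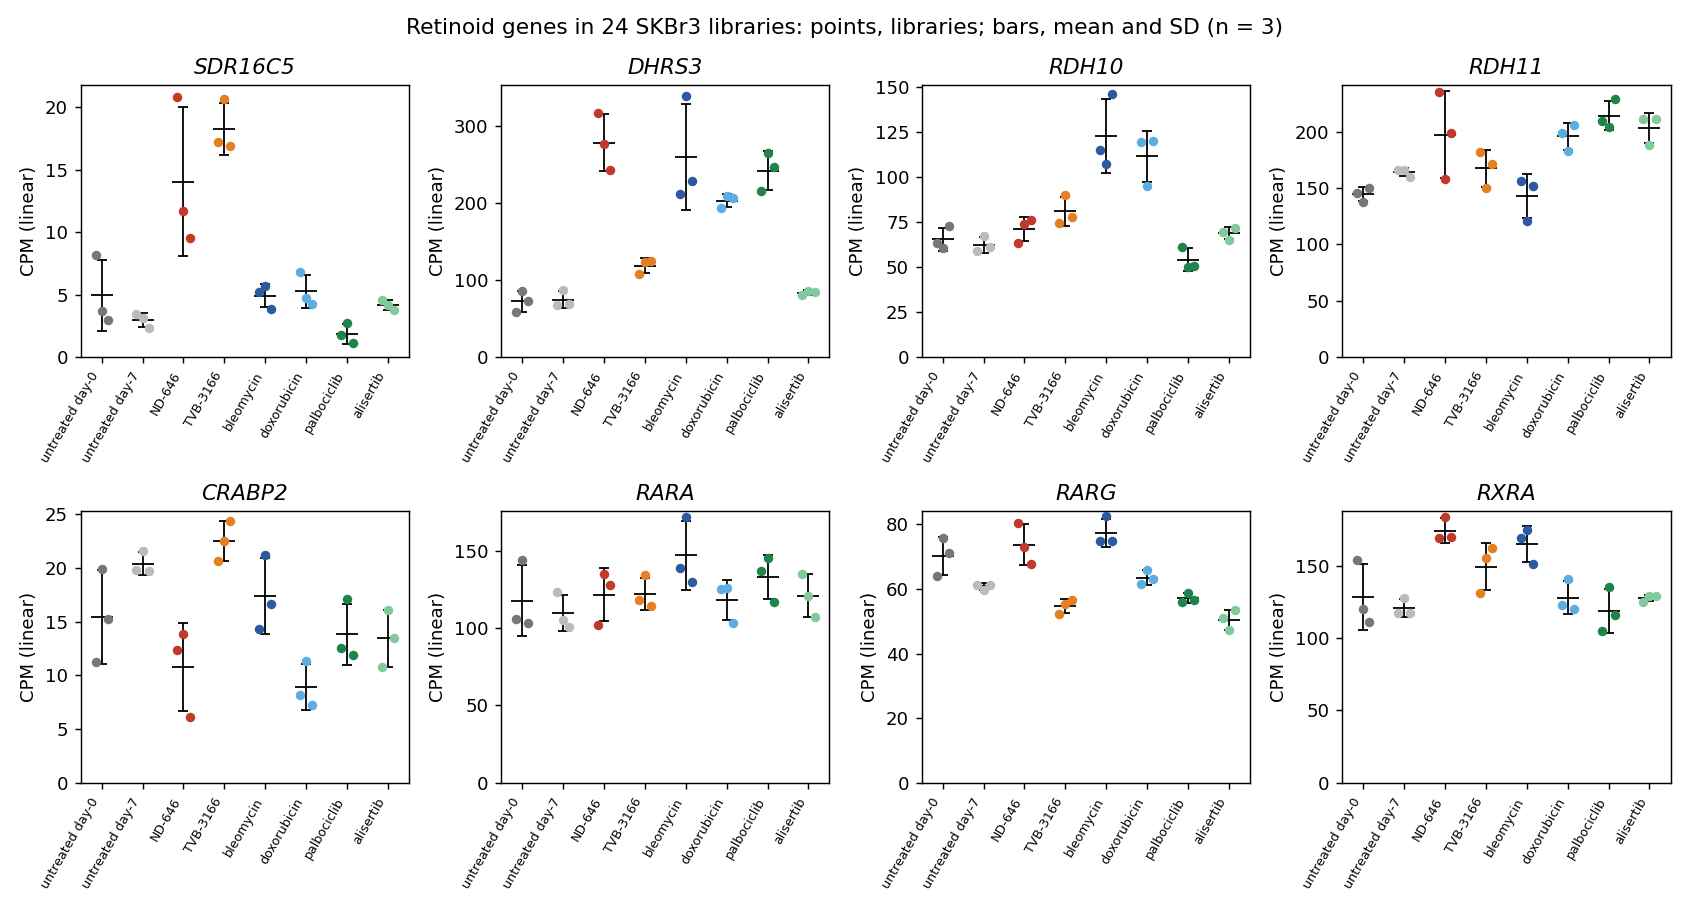
Level of each gene in CPM (TMM-scaled, linear axis from 0) in the 8 groups. Points are the 24 libraries and bars the mean and SD of 3 libraries. The SDR16C5 libraries of ND-646 and TVB-3166 cells lie between 9.57 and 20.8 CPM, above all others, whereas the DHRS3 libraries of 4 TIS groups lie between 193 and 339 CPM, above all those of untreated, alisertib, and TVB-3166 cells.

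DHRS3 (Entrez 9249, chr1:12627939-12678216, minus strand of GRCh37) reduces retinal to retinol and limits the supply of retinoic acid. Day-0 libraries held 58.3, 85.5, and 72.9 CPM and day-7 libraries 68.1, 87.3, and 68.5 CPM. ND-646 libraries held 316, 276, and 243 CPM. Every ND-646 library was thus above every untreated one. The fold-change against day-0 cells was 3.84 (log2 1.94 ± 0.18 SE, edgeR adjusted p = 0.000109), and it was 1.85 on the log2 scale without ND-646 replicate 1 (adjusted p = 1.2e-05). Bleomycin libraries held 212, 339, and 229 CPM, palbociclib libraries 215, 265, and 246 CPM, and doxorubicin libraries 193, 209, and 207 CPM. None of these overlapped with the untreated libraries. The log2 fold-changes were 1.86 in bleomycin cells (adjusted p = 0.000131), 1.74 in palbociclib cells (adjusted p = 6.08e-06), and 1.5 in doxorubicin cells (adjusted p = 3.76e-05).

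TVB-3166 and alisertib cells stood lower in DHRS3. TVB-3166 libraries held 108, 123, and 125 CPM, above the untreated and below the ND-646 libraries, and the rise over day 0 was 1.65-fold (log2 0.72 ± 0.13 SE, adjusted p = 0.00083). Alisertib libraries held 80.1, 85.7, and 84.7 CPM and overlapped with those of day 0 (log2 0.21, adjusted p = 0.226). All 5 rises were called under every setting and with each library left out in turn, other than the TVB-3166 rise under a required fold-change of 2. Against day-7 cells the log2 fold-changes were close to those above, from 0.68 in TVB-3166 to 1.90 in ND-646 cells, with 0.18 in alisertib cells. In order of level, ND-646, bleomycin, and palbociclib cells overlapped with their neighbours, and doxorubicin, TVB-3166, and alisertib cells were each separate from the next higher group.

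The direct comparison of the inhibitors gave DHRS3 as the only called gene of the 8 (0.717% of all genes). It averaged 119 ± 8.78 CPM in TVB-3166 and 278 ± 36.4 CPM in ND-646 cells, a log2 difference of -1.23 ± 0.14 SE (adjusted p = 0.0354), and -1.22 with the replicate number as a block (adjusted p = 0.0223). The 3 libraries of each group did not overlap. The call was lost when any library other than ND-646 replicate 1 was left out, with log2 differences of -1.17 to -1.32 and adjusted p-values of 0.0613 to 0.234. Without ND-646 replicate 1 the difference was -1.13 (adjusted p = 0.000304).

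The bases just upstream of a transcription start are printed for DHRS3, the gene that rose most widely, and for RARA, which passed the test in none of the drug groups, so that they can be set side by side. They are 250-base windows from RefSeq (GRCh38.p14) that matched GRCh37 letter for letter at 1 place each, shown 5′ to 3′ on the strand of the gene. Capitals mark retinoid receptor half-sites, searched on both strands as AGGTCA, as GGTTCA, as GGGTCA, and as AGTTCA. The window of the first DHRS3 start, chr1:12678217-12678466 (minus strand), also overlaps an exon of a long non-coding RNA gene, ENSG00000288927. The other windows of this set, chr1:12656627-12656876 (minus strand), upstream of an internal DHRS3 start, and chr17:38465182-38465431 (plus strand), upstream of RARA, overlap no annotated exon.
DHRS3, first start: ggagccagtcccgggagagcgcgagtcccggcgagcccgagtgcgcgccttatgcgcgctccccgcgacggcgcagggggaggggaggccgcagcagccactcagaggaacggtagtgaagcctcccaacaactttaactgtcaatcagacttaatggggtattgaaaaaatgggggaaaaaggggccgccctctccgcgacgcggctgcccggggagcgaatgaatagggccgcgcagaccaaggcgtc
DHRS3, internal start: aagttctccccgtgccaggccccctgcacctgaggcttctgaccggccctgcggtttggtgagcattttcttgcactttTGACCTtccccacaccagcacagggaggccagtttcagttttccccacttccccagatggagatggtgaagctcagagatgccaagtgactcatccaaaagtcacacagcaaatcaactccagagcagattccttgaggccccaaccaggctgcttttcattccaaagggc
RARA, first start: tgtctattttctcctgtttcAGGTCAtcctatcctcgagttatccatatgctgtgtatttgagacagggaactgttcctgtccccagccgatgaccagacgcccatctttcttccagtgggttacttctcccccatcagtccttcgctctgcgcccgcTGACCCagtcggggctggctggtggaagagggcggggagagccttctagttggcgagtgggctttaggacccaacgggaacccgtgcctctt

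The window of the first DHRS3 start held none of these letters. That of the internal start held TGACCT, which is AGGTCA on the other strand, 171 to 166 bases before the start. The window of the first RARA start held AGGTCA 230 to 225 bases before the start and TGACCC, which is GGGTCA on the other strand, 92 to 87 bases before it. Further RARA windows, at chr17:38474247-38474496 and chr17:38498168-38498417 (plus strand of GRCh37, not printed), held none. Windows were found for 6 of the 8 genes. A further DHRS3 window in RefSeq, at chr1:12616790-12617039 (minus strand) of GRCh38.p14, did not match GRCh37 letter for letter at 1 place and held GGTTCA 172 to 167 bases before its start. Beyond these, CRABP2 and RXRA each had 1 half-site, in gGGTTCAatggagct (chr1:156675820-156675825, minus strand) and ctcctgctGGGTCActtgcctg (chr9:137270905-137270910, plus strand). Among 35114 windows of the same length, 12.1% held AGGTCA, 7.16% GGTTCA, 12.1% GGGTCA, and 8.8% AGTTCA on either strand, so single matches are common. Direct repeats of these half-sites with a spacing of 1, 2, or 5 bases were in 0.0968%, 0.0313%, and 0.074% of windows and in none of the printed ones. These are matches of letters and not sites of binding.

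RDH10 (Entrez 157506, chr8:74206837-74237516, plus strand of GRCh37) catalyses the first, rate-limiting step of retinoic acid synthesis, and forms a complex with DHRS3 in which each activates the other. Day-0 libraries held 63.3, 60.4, and 72.6 CPM. Bleomycin libraries held 115, 107, and 146 CPM and doxorubicin libraries 119, 94.7, and 120 CPM, all above every untreated library. The rises were 1.88-fold (log2 0.91 ± 0.14 SE, edgeR adjusted p = 0.000557) and 1.71-fold (log2 0.78 ± 0.12 SE, adjusted p = 0.000521), and both were called with each library left out. TVB-3166 libraries held 74.6, 89.8, and 77.9 CPM, just above the highest day-0 library (log2 0.31, adjusted p = 0.0299), a call that was lost without TVB-3166 replicates 2 or 3 or day-0 replicate 2 (adjusted p up to 0.148). ND-646 (0.11) and alisertib cells (0.07) overlapped with day-0 cells. Palbociclib libraries held 61.2, 50, and 50.7 CPM (log2 -0.28, adjusted p = 0.0618). Against day-7 cells RDH10 was called in bleomycin (1.0, adjusted p = 0.000368), doxorubicin (0.86, adjusted p = 4.13e-05), and TVB-3166 cells (0.38, adjusted p = 0.00479). It was not called there in ND-646, alisertib, or palbociclib cells. An antisense gene, RDH10-AS1, overlaps its exons and has no row in the table, and the strand setting of the counting is not given in the sources used here.

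DHRS3 and RDH10 therefore did not move by the same amount in each group. The ratio of DHRS3 to RDH10, both per kilobase of exon, was 1.69 ± 0.402 in day-0 and 1.81 ± 0.146 in day-7 cells (SD, n = 3). It was 6.9 ± 1.41 in palbociclib and 6.03 ± 1.39 in ND-646 cells, whose lowest library, at 4.84, was above the highest untreated library, at 2.15. It was 3.33 ± 1.31 in bleomycin and 2.81 ± 0.47 in doxorubicin cells, and both genes rose in both groups. Their lowest libraries, at 2.38 and 2.46, were also above the highest untreated library. TVB-3166 cells, where both genes were also called higher than at day 0, stood at 2.23 ± 0.181 and alisertib cells at 1.85 ± 0.128. Both overlapped with the untreated range.

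**Figure D3:**
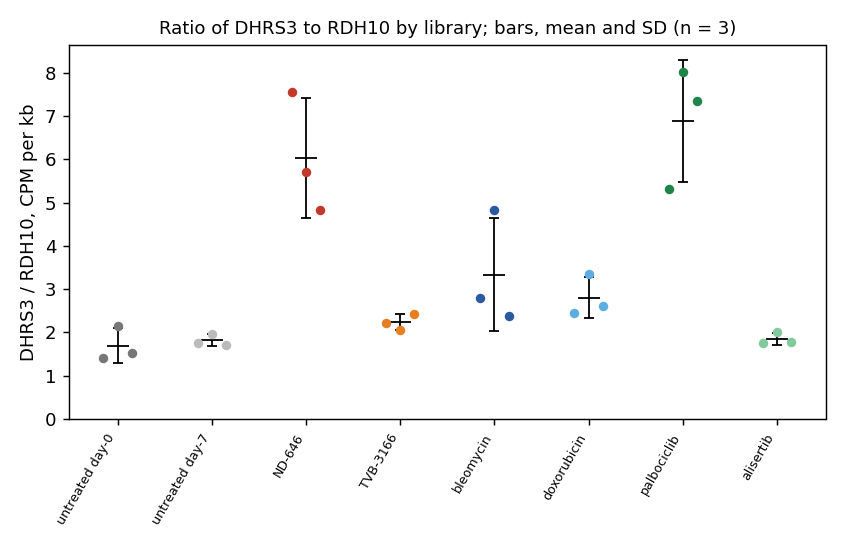
Ratio of the DHRS3 level to the RDH10 level, each in CPM per kilobase of exon (linear axis from 0), in 8 groups. Points are libraries and bars the mean and SD of 3 libraries. ND-646 (4.84 to 7.55) and palbociclib libraries (5.32 to 8.03) lie above all untreated libraries (1.4 to 2.15). So do bleomycin (2.38 to 4.82) and doxorubicin libraries (2.46 to 3.34).

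RDH11 (Entrez 51109, chr14:68143517-68162510, minus strand of GRCh37) is a retinal reductase of the endoplasmic reticulum and was, per kilobase, the most abundant of the 8 genes at day 0 (26.3 CPM). Day-0 libraries held 146, 138, and 150 CPM. Palbociclib libraries held 210, 204, and 229 CPM, alisertib libraries 211, 188, and 211 CPM, and doxorubicin libraries 199, 183, and 206 CPM. All 9 were above all 6 untreated libraries, whose highest was 166 CPM. The log2 fold-changes were 0.57 (edgeR adjusted p = 0.000381), 0.49 (adjusted p = 0.00195), and 0.45 (adjusted p = 0.00206), and the calls were kept with each library left out and against day-7 cells. ND-646 libraries were spread, at 235, 158, and 199 CPM (log2 0.44 ± 0.17 SE, adjusted p = 0.0635, and 0.30 without replicate 1), and those of TVB-3166 held 182, 150, and 171 CPM (log2 0.22, adjusted p = 0.0769). Bleomycin libraries held 156, 121, and 152 CPM and overlapped with those of day 0 (log2 -0.01, adjusted p = 0.95). A read-through gene on the same strand, ENSG00000258466, shares exons with RDH11, so the counts could include its reads.

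CRABP2 (Entrez 1382, chr1:156669398-156675608, minus strand of GRCh37) delivers retinoic acid to the retinoic acid receptors. Day-0 libraries held 11.2, 19.9, and 15.2 CPM and day-7 libraries 19.8, 21.6, and 19.7 CPM. The inhibitors lay on opposite sides of the day-0 mean. TVB-3166 libraries held 20.6, 22.5, and 24.4 CPM (log2 0.56 ± 0.18 SE, edgeR adjusted p = 0.0226) and ND-646 libraries 12.4, 13.8, and 6.1 CPM (log2 -0.53 ± 0.32 SE, adjusted p = 0.229). The difference between TVB-3166 and ND-646 cells was 1.07 on the log2 scale, with no overlap, and was not called (adjusted p = 0.134), although it was called without ND-646 replicate 1 (1.19, adjusted p = 0.0195) and with DESeq2 (1.06, adjusted p = 0.0118). Doxorubicin libraries held 8.13, 11.3, and 7.25 CPM, the lowest group mean (log2 -0.78 ± 0.23 SE, adjusted p = 0.0173). The TVB-3166 call was lost against day-7 cells (0.15, adjusted p = 0.235), in one fit of all 24 libraries (0.55, adjusted p = 0.0638), and without day-0 replicate 3 or TVB-3166 replicates 2 or 3, and the doxorubicin call without day-0 replicate 2 or doxorubicin replicates 1 or 3 (adjusted p up to 0.0722). Against day-7 cells CRABP2 was lower in doxorubicin (-1.17, adjusted p = 0.000114), ND-646 (-0.92, adjusted p = 0.0335), alisertib (-0.58, adjusted p = 0.0161), and palbociclib cells (-0.55, adjusted p = 0.00727), so only the doxorubicin fall was called with both references.

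RARA (Entrez 5914, chr17:38465432-38513895, plus strand of GRCh37) encodes the main retinoic acid receptor of these cells by RNA level. Day-0 libraries held 106, 144, and 103 CPM. The libraries of the other groups ran from 101 to 172 CPM, the highest being bleomycin replicate 2, and each group overlapped with day 0. Log2 fold-changes ran from 0.01 in doxorubicin to 0.33 in bleomycin cells (edgeR adjusted p = 0.117). Neither edgeR nor DESeq2 called RARA in any of the 6 TIS groups, and 0 of 6 had an unadjusted p-value under 0.05. Without day-0 replicate 2, the highest day-0 library, edgeR called it in bleomycin (0.50, adjusted p = 0.0271) and palbociclib cells (0.36, adjusted p = 0.0273, beside 0.18 with all libraries). Against day-7 cells it was called in bleomycin (0.44, adjusted p = 0.0203) and palbociclib cells (0.29, adjusted p = 0.0343). RARA-AS1, on the opposite strand, held at most 2.59% of the RARA count in a library.

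RARG (Entrez 5916, chr12:53604351-53626764, minus strand of GRCh37) encodes the receptor that prevails in skin. Day-0 libraries held 64.0, 75.7, and 71.2 CPM. Alisertib libraries held 50.9, 47.2, and 53.4 CPM, TVB-3166 libraries 52.4, 55.3, and 56.5 CPM, and palbociclib libraries 56.0, 58.9, and 56.7 CPM, all below every untreated library. The falls from day 0 were small: 1.40-fold in alisertib (log2 -0.48 ± 0.10 SE, edgeR adjusted p = 0.00359), 1.28-fold in TVB-3166 (log2 -0.35, adjusted p = 0.0086), and 1.23-fold in palbociclib cells (log2 -0.30, adjusted p = 0.0194). Against day-7 cells, at 61.3, 59.7, and 61.4 CPM, the alisertib fall was called (-0.25, adjusted p = 0.0384), while those of TVB-3166 (-0.14, adjusted p = 0.132) and palbociclib cells (-0.08, adjusted p = 0.423) were not. The palbociclib call was also lost without day-0 replicate 2 or palbociclib replicates 1 or 3. ND-646 (0.06), bleomycin (0.14), and doxorubicin cells (-0.13) overlapped with day 0. Against day-7 cells RARG was called higher in bleomycin cells (0.36, adjusted p = 0.00774). It was not called there in ND-646 (0.28, adjusted p = 0.109) or doxorubicin cells (0.09, adjusted p = 0.375). Between TVB-3166 and ND-646 cells RARG was called with DESeq2 (-0.43, adjusted p = 0.027) and, in edgeR, without ND-646 replicate 1 (-0.36, adjusted p = 0.0222).

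RARA remained the largest part of the retinoic acid receptor level in every group. Per kilobase of exon RARA made up 64.0% ± 3.19 of the summed RARA, RARB, and RARG level in day-0 cells and between 63.7% (ND-646) and 71.9% (alisertib) as group means of TIS cells. The shares of TVB-3166, palbociclib, and alisertib libraries (68.3% to 74.0%) were all above those of day 0 (60.8% to 67.2%), while day-7 libraries reached 68.4%. The ratio of RXRA to that sum was 0.35 to 0.377 in ND-646 libraries, beside 0.221 to 0.366 at day 0 and 0.256 to 0.311 at day 7. RARB, which retinoic acid induces, held at most 0.384% as a group mean, in doxorubicin cells. Its counts were 11 to 58 per library.

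RXRA (Entrez 6256, chr9:137208944-137332431, plus strand of GRCh37) encodes the shared heterodimer partner. Day-0 libraries held 154, 120, and 111 CPM, of which the first was the highest untreated library. ND-646 libraries held 169, 184, and 170 CPM and bleomycin libraries 169, 175, and 151 CPM. The former were all above day 0 and the latter overlapped with it. The log2 fold-change was 0.37 ± 0.13 SE in bleomycin cells (edgeR adjusted p = 0.0434), a call lost with no filter (adjusted p = 0.0517) and without any 1 library other than day-0 replicate 1 (adjusted p up to 0.151). It was 0.44 ± 0.16 SE in ND-646 cells (adjusted p = 0.0572), and 0.46 without ND-646 replicate 1 (adjusted p = 0.0192). TVB-3166 libraries held 131, 155, and 162 CPM (0.22, adjusted p = 0.171). Against day-7 cells, whose libraries held 117, 128, and 117 CPM, all 3 were called, at 0.53 in ND-646 (adjusted p = 0.00901), 0.47 in bleomycin (adjusted p = 0.00316), and 0.31 in TVB-3166 cells (adjusted p = 0.0134). Alisertib (125, 129, and 129 CPM), doxorubicin (123, 141, and 120 CPM), and palbociclib libraries (105, 135, and 116 CPM) lay within or near the untreated range.

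The mean of both lipogenesis inhibitors was then set against the mean of the other 4 drugs in a fit of all 24 libraries, which asks where inhibition of fatty acid synthesis differed from the other ways of inducing TIS. RXRA was the only one of the 7 genes called (51% of all genes), at 162 against 135 CPM (log2 difference 0.28 ± 0.07 SE, edgeR adjusted p = 0.0023). The call was kept with each of the 18 libraries left out, from 0.24 to 0.32, but single libraries overlapped, and the bleomycin mean, 165 CPM, was above that of TVB-3166 cells, 149 CPM. DHRS3, at 198 against 197 CPM, differed by 0.01 (adjusted p = 0.925), which averages the high ND-646 and the lower TVB-3166 cells. For SDR16C5 the description is 16.1 against 4.06 CPM, a log2 difference of 2.09, and 1.89 without ND-646 replicate 1.

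Other genes of the pathway were taken from 5 lists by role, with 74 genes of which 33 were in the table. Against day-0 cells, 8 rose and 5 fell of 32 tested in ND-646 cells, 6 rose and 7 fell of 32 in TVB-3166 cells, 12 and 7 of 33 in bleomycin cells, 14 and 5 in doxorubicin cells, 13 and 5 in palbociclib cells, and 5 and 2 in alisertib cells. Of all genes 19.1% rose and 18.8% fell in ND-646 cells, 27.4% and 27.7% in TVB-3166 cells, 24.1% and 25.3% in bleomycin cells, 23.7% and 24.8% in doxorubicin cells, 26% and 27.2% in palbociclib cells, and 17.7% and 19.6% in alisertib cells. In either direction the called shares of the listed genes were 40.6%, 40.6%, 57.6%, 57.6%, 54.5%, and 21.2%, against 37.9%, 55.1%, 49.4%, 48.4%, 53.2%, and 37.3% of all genes. The medians of the log2 fold-changes were between -0.06 and 0.10, beside -0.01 to 0.02 for all genes. Between day-7 and day-0 cells edgeR called 0 of 33, against 0.587% of all genes. An unadjusted p-value under 0.05 was found for 7 of the 33, against 23.9% of all genes. DESeq2 called 3 of 31 tested, beside 1131 of all genes.

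Of the uptake and binding genes, FABP5, which carries retinoic acid to PPARδ as well as fatty acids, fell most in the lipogenesis-inhibitor cells. Day-0 libraries held 1.3 to 2.46 CPM (51 to 79 counts) and ND-646 and TVB-3166 libraries 0.143 to 0.234 CPM (4 to 7 counts). The log2 fold-changes were -3.50 (edgeR adjusted p = 0.000372) and -3.17 (adjusted p = 4.21e-05), against -0.97 in bleomycin cells (adjusted p = 0.0482). FABP5 has near-identical processed copies in the genome, so its counts are uncertain. BCO1, which cleaves β-carotene into retinal, rose in ND-646 (1.35, adjusted p = 0.0148) and TVB-3166 cells (0.83, adjusted p = 0.0378) and was not called in the other 4 groups (-0.22 to 0.49). The retinol uptake receptor STRA6 had the other pattern, with rises in doxorubicin (1.99, adjusted p = 0.000118), bleomycin (1.63, adjusted p = 0.000708), and palbociclib cells (0.92, adjusted p = 0.0101) and values of 0.45 and -0.13, not called, in ND-646 (0.70 without ND-646 replicate 1) and TVB-3166 cells. RBP5, a cellular retinol-binding protein, fell in bleomycin (-1.76) and ND-646 cells (-1.45, adjusted p = 0.0377, and -1.90 without ND-646 replicate 1).

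Among the oxidoreductases, AKR1B10, an aldo-keto reductase of retinal, rose in all 6 TIS groups, by log2 fold-changes of 1.54 (alisertib, adjusted p = 0.00996) to 3.40 (doxorubicin, adjusted p = 3.47e-05). Untreated day-7 cells, at 1.74 CPM against 0.67 CPM at day 0 (1.36, adjusted p = 0.0918), did not overlap with day 0 either, and alisertib (1.97 CPM) and palbociclib cells (2.18 CPM) were close to day 7. RDH16, a retinol dehydrogenase, rose in doxorubicin (2.38) and bleomycin cells (2.04) from 6 to 11 counts per day-0 library, and was called in ND-646 cells only without replicate 1 (1.41, adjusted p = 0.0292, beside 1.25, adjusted p = 0.0533). RDH13, a mitochondrial retinal reductase, fell in 5 groups, from -0.35 (doxorubicin) to -0.93 (ND-646), and was not called in alisertib cells (-0.20). DHRS7 rose in ND-646 (0.77, and 0.46 without replicate 1), palbociclib (0.48), and doxorubicin cells (0.24). Of the retinoic acid synthesis enzymes, ALDH1A3 rose in palbociclib (2.07, adjusted p = 8.73e-07), doxorubicin (1.59, adjusted p = 1.1e-05), bleomycin (1.57, adjusted p = 5.04e-05), and alisertib cells (0.55, adjusted p = 0.00171). ALDH1A3 averaged 138 ± 10.8 CPM at day 0, 579 ± 23.5 CPM in palbociclib cells, and 145 ± 12.6 CPM in TVB-3166 cells. Day-7 cells averaged 222 ± 69.1 CPM (0.70 over day 0, adjusted p = 0.0894, no overlap), above the 203 ± 13.9 CPM of alisertib cells. It was not called in TVB-3166 (0.08) or ND-646 cells (0.40, and 0.60 with adjusted p = 0.00293 without ND-646 replicate 1). ALDH1A1 fell in bleomycin cells (-0.89, adjusted p = 0.0291) and was not called in the other groups.

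Among the coregulators, the corepressor NRIP1 and the coactivator NCOA3 rose in every group but alisertib, by 0.69 (TVB-3166) to 1.58 (bleomycin) and by 0.54 (palbociclib) to 1.43 (bleomycin). PRAME, a repressor of retinoic acid receptor signalling, fell in ND-646 (-0.76, adjusted p = 0.0443) and TVB-3166 cells (-1.05, adjusted p = 0.00109) and rose in doxorubicin (0.65), palbociclib (0.76), and alisertib cells (0.79). PRAME was also 0.68 higher in untreated day-7 than in day-0 cells (adjusted p = 0.0771, no overlap), at 6.87 CPM beside 6.74, 7.3, and 7.46 CPM in doxorubicin, palbociclib, and alisertib cells. RARB rose in doxorubicin (1.56), bleomycin (1.25), palbociclib (1.15), and ND-646 cells (1.04, adjusted p = 0.0479), at low counts, and was 0.96 higher in untreated day-7 than in day-0 cells (adjusted p = 0.175). Of 20 retinoic acid-induced targets 5 were in the table. PLAAT4 (RARRES3) rose in all 6 groups, from 1.25 ± 0.837 CPM at day 0 to between 4.09 ± 1.08 CPM in alisertib and 51.4 ± 18.9 CPM in bleomycin cells (log2 1.73 to 5.40). GPRC5A (RAI3) rose in every group but alisertib, by 1.0 (TVB-3166) to 2.0 (doxorubicin). The homeobox gene MEIS1 fell in ND-646 cells (-1.15, adjusted p = 0.0221), and RAI14 fell in TVB-3166 cells (-0.63) and rose in palbociclib (1.49), doxorubicin (0.66), and bleomycin cells (0.52).

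**Figure D4:**
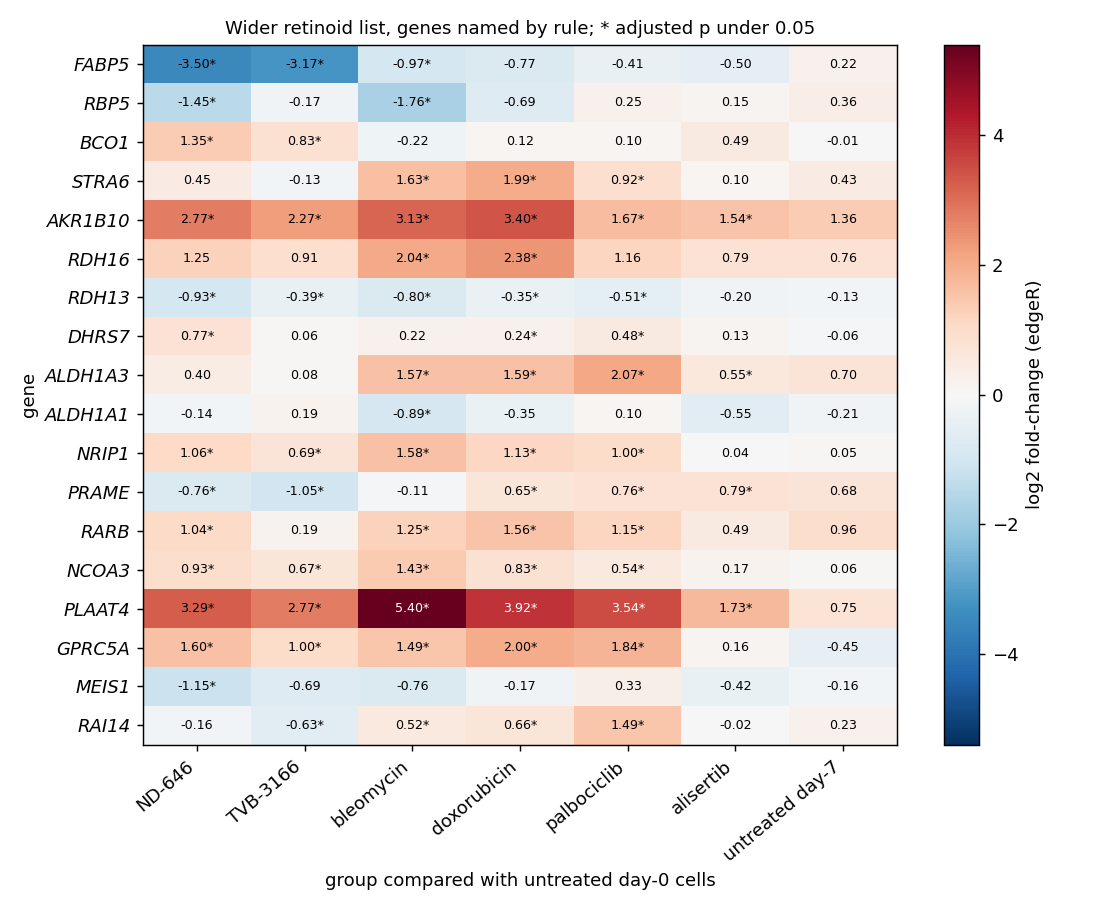
Log2 fold-change against untreated day-0 cells (colour and printed value, edgeR) for 18 genes of the wider retinoid lists (rows) in 6 TIS groups and untreated day-7 cells (columns), 3 libraries per group. A star marks an adjusted p-value under 0.05. AKR1B10 and PLAAT4 carry a star in all 6 TIS groups, FABP5 is lowest in ND-646 (-3.50) and TVB-3166 cells (-3.17), and ALDH1A3 is highest in palbociclib cells (2.07).

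Against untreated day-7 cells, 13 of 32 listed genes were called in ND-646 cells (40.6%, beside 34.2% of all genes). In TVB-3166 cells 18 of 32 were called (56.2%, beside 51.5%), and in alisertib cells 5 of 33 (15.2%, beside 19%). The listed shares were 57.6% in bleomycin (beside 45.6%), 60.6% in doxorubicin (beside 43.4%), and 48.5% in palbociclib cells (beside 44.8%). Several calls against day-0 cells were not made against day-7 cells. AKR1B10 was called in ND-646, TVB-3166, bleomycin, and doxorubicin cells (0.93 to 2.07) but not in palbociclib (0.34) or alisertib cells (0.22), and ALDH1A3 not in alisertib cells (-0.12). PRAME stayed lower in ND-646 (-1.42, adjusted p = 0.00238) and TVB-3166 cells (-1.72, adjusted p = 1.41e-05). It was also called lower in bleomycin cells (-0.77, adjusted p = 0.0204), where it was not called against day 0. It was not called in palbociclib (0.10), alisertib (0.14), or doxorubicin cells (adjusted p = 0.988). RARB was called in 0 of the 6 groups. PLAAT4 was not called in alisertib cells (1.01, adjusted p = 0.0687), STRA6 not in palbociclib cells (0.51), RAI14 not in bleomycin cells (0.31), and RDH13 neither in TVB-3166 (-0.25) nor in doxorubicin cells (-0.20). ALDH1A3 was lower in TVB-3166 than in day-7 cells (-0.61, adjusted p = 0.0152). Other calls made only against day-7 cells included GPRC5A in alisertib (0.63, adjusted p = 0.00473) and RBP5 in doxorubicin cells (-1.03, adjusted p = 0.00787). ALDH1A1 in TVB-3166 cells (0.4, adjusted p = 0.0197) was another. The FABP5 and BCO1 calls in both inhibitor groups were kept (-3.71 and -3.38, 1.36 and 0.85).

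In the comparison of both lipogenesis inhibitors with the other 4 drugs, 8 of the 33 listed genes were higher and 10 lower (54.5% called, against 51% of all genes, of which 26.3% were higher and 24.7% lower). FABP5 (-2.67, adjusted p = 9.7e-08), PRAME (-1.42, adjusted p = 1.33e-08), and ALDH1A3 (-1.20, adjusted p = 4.73e-08) are among those that differed most. Of the 5 induced targets 4 were lower and 0 higher, with PLAAT4 at -0.60 (adjusted p = 0.0258), RAI14 at -1.05 (adjusted p = 2.94e-08), and MEIS1 at -0.66 (adjusted p = 0.0311). Single libraries overlapped for all 4, and only RAI14 had both inhibitor means below that of every other drug. PLAAT4 averaged 12.2 CPM in ND-646 and 8.34 CPM in TVB-3166 cells, above alisertib (4.09 CPM) and below bleomycin cells (51.4 CPM). MEIS2 averaged 21.9 and 20.2 CPM, beside 21.2 CPM in alisertib cells. Of the 10 oxidoreductases 4 were higher and 0 lower. Between TVB-3166 and ND-646 cells edgeR called 0 of 31 listed genes, against 0.717% of all genes. An unadjusted p-value under 0.05 was found for 7, against 15.1% of all genes, and DESeq2 called 2. Without ND-646 replicate 1 edgeR called 8 of 31, 1 higher and 7 lower (25.8%, against 11.0% of all genes in that fit).

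The genes whose levels followed those of SDR16C5 most closely were found by Pearson correlation of mean log2 CPM over the 8 groups among 14077 genes. They were SLC37A1 (0.98), a phosphate-linked glucose-6-phosphate antiporter, CAPN9 (0.975), a digestive-tract calpain, LOC648987 (0.972), SLC44A4 (0.972), a thiamine pyrophosphate transporter, and MEF2A (0.971), a transcription factor. SLC44A4 averaged 18.8 CPM at day 0, 34.6 CPM in ND-646, 41.0 CPM in TVB-3166, and 8.98 CPM in palbociclib cells. Those closest to DHRS3 were LRRC8D (0.976), SNX33 (0.971), SNX30 (0.969), RSBN1 (0.968), and OR51B5 (0.966). The correlation between SDR16C5 and DHRS3 themselves was 0.125, and RXRA, at 0.739, was the gene of the 8 most like SDR16C5. The correlations describe 8 group means that share the same libraries and carry no test.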

How the data were processed

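RNA-seq of 24 SKBr3 libraries was used. Per the labels the library kit was a stranded mRNA kit, whereas the methods name a total RNA kit. The authors aligned reads to GRCh37 with HISAT2, used StringTie and DESeq2, and deposited raw counts of reads for each gene. How reads were assigned to genes and strands is not given in the sources used here. Each of the 14493 genes had at least 1 count in every library, and genes with 0 counts in any library were not analysed here. Palbociclib is spelled Palboclib in the labels. Groups came from the labels.

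edgeR 4.0.16 (R 4.3.3; filterByExpr, TMM, glmQLFit and glmQLFTest, 2-sided) was run on the 6 libraries of each pair of groups, with Benjamini-Hochberg adjustment over all genes tested. The lipogenesis inhibitors were compared with the other drugs in a fit of all 24 libraries. Levels are CPM with TMM scaling over 24 libraries, divided by the union of annotated exons where given per kilobase. Log2 CPM used a prior count of 2. The 8 genes and the lists of pathway genes and markers were chosen with earlier results of these data known. Of each list, up to 4 genes called in at least 1 comparison with day-0 cells were named, by their largest absolute log2 fold-change in either inhibitor group, with the 5 genes most correlated with SDR16C5 and with DHRS3.

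The deviations from the group mean were correlated between the TVB-3166 and ND-646 libraries of each replicate number (3 of 3 correlations over 0.1, from 0.213 to 0.38). The main test of this comparison was nevertheless unpaired. Replicate numbers were used as pairs only where the replicate block is named. Against day-0 cells at least 1 of 3 correlations was under 0.1. The alternatives were DESeq2 1.42.0, RLE size factors, no filter, all 24 libraries in one fit, the replicate block, day-7 cells as the reference, a fold-change of at least 2 with an unadjusted p-value under 0.05, and leaving out each library. On simulated counts for ND-646 against day-0 cells (13649 genes), edgeR recovered 96.9% of 2-fold and 100% of 4-fold changes with 4 false calls. For the lipogenesis inhibitors against the other drugs (14035 genes), it recovered 100% of 2-fold and 100% of 4-fold changes with 12 false calls. The simulated counts had the same dispersion for every gene. For ND-646, 2-fold changes were set in 98 genes and 4-fold changes in 102, all above a minimum mean count. Recovery was thus not tested for genes with few counts, such as FABP5, RDH16, and RARB. Recovery with 1 library standing apart, as ND-646 replicate 1 did, was also not tested.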

Additional observations from a re-analysis of the deposited data

Results flagged for a closer look

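Effects of 2 kinds of drug were set against each other by a direct test, and those listed here differed (edgeR quasi-likelihood test, Benjamini-Hochberg adjusted p). Between TVB-3166 and ND-646 cells, DHRS3 differed by -1.23 on the log2 scale (adjusted p = 0.0354), and its call is lost when any library other than ND-646 replicate 1 is left out. Between the lipogenesis inhibitors and the other 4 drugs, RXRA differed by 0.28 (adjusted p = 0.0023), BCO1 by 0.97 (adjusted p = 6.17e-05), and ALDH1A1 by 0.45 (adjusted p = 0.0057), all higher with the inhibitors. Of the 10 listed genes lower with the inhibitors, 7 were among the named genes, FABP5 at -2.67 (adjusted p = 9.7e-08), PRAME at -1.42 (adjusted p = 1.33e-08), ALDH1A3 at -1.20 (adjusted p = 4.73e-08), RAI14 at -1.05 (adjusted p = 2.94e-08), STRA6 at -1.0 (adjusted p = 0.00018), MEIS1 at -0.66 (adjusted p = 0.0311), and PLAAT4 at -0.60 (adjusted p = 0.0258). The other 3, named here to complete the count, were BCO2 at -1.45 (adjusted p = 0.000369), SCARB1 at -0.59 (adjusted p = 3.43e-06), and MEIS2 at -0.33 (adjusted p = 0.00148). The listed genes higher with the inhibitors also included DHRS4 at 0.74 (adjusted p = 3.1e-06), DHRS4L2 at 0.63 (adjusted p = 0.000603), and DGAT1 at 0.37 (adjusted p = 5.2e-05). The rest of those higher were RETSAT at 0.27 (adjusted p = 0.00532), ADH5 at 0.24 (adjusted p = 0.00379), and RXRB at 0.22 (adjusted p = 0.00125). In that comparison 51% of all genes were called. Of the genes named here for it, only FABP5 had libraries that did not overlap between the 2 sides. STRA6, for example, averaged 2.51 CPM in ND-646 cells, above 1.96 CPM in alisertib cells.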

How the results depend on the processing

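Under the alternatives 776 of 887 tested values of the 8 genes kept their direction and their side of the threshold, 28 passed it in the same direction, 41 no longer passed it, and 42 changed sign. Of the 113 SDR16C5 values given without a test, 5 changed sign, in alisertib cells (0.50 with day-7 cells as the reference and 0.34 without day-0 replicate 1, beside -0.26) and in doxorubicin cells (-0.07 to -0.16, beside 0.10). The cause was not tested. The number of the 7 genes called against day-0 cells was 3 in ND-646 cells with all 24 libraries in one fit or with day-7 cells as the reference (1 in the report) and 5 in bleomycin cells with day-7 cells as the reference. With a fold-change of at least 2 and an unadjusted p-value under 0.05 it was 0 in TVB-3166 and 0 in alisertib cells, and 1 each in bleomycin, doxorubicin, and palbociclib cells, 2 between TVB-3166 and ND-646 cells, and 0 between the inhibitors and the other drugs. Between TVB-3166 and ND-646 cells it was 3 with DESeq2 (DHRS3, CRABP2, and RARG) and 3 with all 24 libraries in one fit. With 1 library left out it ran from 1 to 2 in ND-646 cells (2 without day-0 replicate 1 or ND-646 replicate 1 or 2), 2 to 5 in TVB-3166 cells (2 without TVB-3166 replicate 3), 0 to 3 between the inhibitors (3 without ND-646 replicate 1 and 0 without any other library), and 1 to 2 for the inhibitors against the other drugs (2 without ND-646 replicate 3).

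The number of all genes called was 7878 in ND-646 cells with all 24 libraries in one fit. With the fold-change rule it was 2413 in TVB-3166, 2821 in ND-646, 1088 in alisertib, 2292 in palbociclib, 1783 in doxorubicin, 2585 in bleomycin, and 271 in day-7 cells, 429 between the inhibitors, and 1000 for the inhibitors against the other drugs. It was 2627 in alisertib cells against day-7 cells. Between day-7 and day-0 cells it was 0 with no filter, 1131 with DESeq2, and 441 in one fit, and between the inhibitors 32, 753, and 1268. With 1 library left out it ran from 3128 to 5205 in alisertib cells (lowest without replicate 3), 0 to 94 between day-7 and day-0 cells, and 0 to 1518 between the inhibitors. With the replicate block 310 genes were called between the inhibitors (98 without) and 1263 between day-7 and day-0 cells (80 without). For day-7 and day-0 cells, 2 of 3 correlations by replicate number were over 0.1 (0.0711 to 0.222). The labels do not say whether equal numbers are pairs. Of the 7 genes the block changed 1 call, RARA in bleomycin cells (0.34, edgeR adjusted p = 0.0103).

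Among tested values, signs turned with day-7 cells as the reference for CRABP2 in bleomycin (-0.21), RARG in doxorubicin (0.09), and RXRA in alisertib cells (0.10), and with no filter for RXRA in doxorubicin cells (-0.01). None of these was called in the report. With 1 library left out the log2 values that changed sign, all of them uncalled, were RARA in ND-646 (-0.05 to 0.21), TVB-3166 (-0.03 to 0.23), doxorubicin (-0.08 to 0.19), alisertib (-0.05 to 0.22), and day-7 cells (-0.19 to 0.09) and between the inhibitors (-0.10 to 0.09), RARG in ND-646 cells (-0.01 to 0.12), CRABP2 in bleomycin (-0.02 to 0.40), palbociclib (-0.34 to 0.08), and alisertib cells (-0.37 to 0.05), RDH11 in bleomycin cells (-0.08 to 0.09) and in inhibitors against other drugs (-0.11 to 0.03), RXRA in doxorubicin (-0.09 to 0.15), palbociclib (-0.21 to 0.04), alisertib (-0.10 to 0.15), and day-7 cells (-0.19 to 0.07), DHRS3 in day-7 cells (-0.08 to 0.20) and in inhibitors against other drugs (-0.04 to 0.07), and RDH10 in day-7 cells (-0.13 to 0.01). Scaling by RLE moved the median of all genes by at most 0.011 (log2). Values of FABP5, RDH16, RARB, and BCO2 rest on few counts. BCO2 held 3 to 8 counts in ND-646 and 4 to 15 in TVB-3166 libraries.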
